A study of Mus musculus with 6 samples.

Results

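The 32 genes described here make up the core of the hypoxia-inducible factor (HIF) pathway and a group of its targets outside glycolysis: 3 HIF subunits, 5 genes that sense oxygen or turn HIF over, and 24 hypoxia-induced genes of mitochondria, collagen modification, oxidative protein folding, glycogen, pH and other functions. They were chosen by name from knowledge of the pathway, but with earlier results of these data known, so the counts of genes that rose describe these libraries and are not independent evidence. All 32 were found among the 22939 genes of the deposited table, 31 by their symbol and Ero1l by its RefSeq synonym Ero1a. Naive CD4+ T cells came from C57BL/6J-background mice with GFP knocked in at Foxp3, were turned into induced regulatory T cells (Tregs) in culture, and were sorted as GFP+ cells, whose total RNA was sequenced. In both groups the T cells received anti-CD3, anti-CD28, TGF-β1 and blocking antibodies to IFN-γ and IL4. The 3 ctrl-Treg libraries came from cells without sorafenib (Sora), a multikinase inhibitor used against hepatocellular carcinoma, and the 3 Sora-Treg libraries from cells differentiated with it. The sources used here give neither the dose and duration of Sora for the sequenced cells, nor the age of the mice, nor the oxygen level of the cultures, and they do not say whether libraries of a group came from separate mice or cultures, so p-values measure only the spread between these libraries.

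HIF is a pair of proteins, an oxygen-controlled alpha subunit, made by Hif1a or Epas1, and a stable beta subunit, made by Arnt. With oxygen present, prolyl hydroxylases of the Egln family mark the alpha subunit for the ubiquitin ligase that contains Vhl, and the asparagine hydroxylase Hif1an blocks its coactivator binding. Most of this control acts on protein, which RNA sequencing does not measure. In activated T cells, HIF is known to be raised by antigen receptor signalling as well as by low oxygen, to favour glycolysis, and to affect the balance between Th17 cells and Tregs. Among its targets are some of its own hydroxylases, Egln3 above all, which form a feedback loop.

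HIF binds DNA at the hypoxia response element, whose core is ACGTG or GCGTG. RefSeq promoter windows of build GRCm38.p6, reaching from 250 bases before to 50 bases after a transcription start, were given for 27 of the 32 genes (none for Epas1, Bnip3l, Plod2, Ndrg1 and Nrn1). The promoter stretches of 8 genes are shown because these genes had a core before the start and rose by more than 2-fold in Sora-Treg cells. That of Ddit4 is shown because it also holds 2 cores while its RNA differed little, a choice made after its value was seen. Each stretch lies before the start and runs 5′ to 3′ on the strand of its gene, and capitals mark the cores, which read CACGT or CACGC where they lie on the other strand and CACGTG where an E-box holds a core on each strand.
Hif1a (chr12:73907707-73907826, plus strand): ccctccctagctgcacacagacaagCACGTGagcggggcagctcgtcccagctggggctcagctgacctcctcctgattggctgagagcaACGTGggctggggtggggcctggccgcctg
Egln3 (chr12:54204074-54204124, minus strand): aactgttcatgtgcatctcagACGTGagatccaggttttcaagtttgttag
Bnip3 (chr7:138909512-138909648, minus strand): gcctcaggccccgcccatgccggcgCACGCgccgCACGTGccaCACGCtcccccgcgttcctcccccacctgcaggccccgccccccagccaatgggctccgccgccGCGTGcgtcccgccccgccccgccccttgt
P4ha2 (chr11:54100792-54100884, plus strand): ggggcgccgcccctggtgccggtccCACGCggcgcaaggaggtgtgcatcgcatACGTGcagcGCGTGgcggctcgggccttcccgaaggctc
Ero1l (chr14:45318606-45318725, minus strand): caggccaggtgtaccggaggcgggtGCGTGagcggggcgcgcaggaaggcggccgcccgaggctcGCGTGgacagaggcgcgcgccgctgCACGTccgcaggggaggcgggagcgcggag
Adm (chr7:110627542-110627632, plus strand): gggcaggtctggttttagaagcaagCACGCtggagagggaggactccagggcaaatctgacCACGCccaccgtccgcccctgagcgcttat
Ankrd37 (chr8:45999851-46000100, minus strand): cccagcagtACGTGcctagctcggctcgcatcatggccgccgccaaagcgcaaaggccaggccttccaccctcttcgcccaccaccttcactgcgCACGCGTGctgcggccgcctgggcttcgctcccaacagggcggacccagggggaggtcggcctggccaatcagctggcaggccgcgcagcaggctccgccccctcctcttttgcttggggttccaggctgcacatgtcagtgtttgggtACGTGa
Tmem45a (chr16:56886300-56886354, minus strand): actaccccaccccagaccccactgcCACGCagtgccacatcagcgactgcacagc
Ddit4 (chr10:59951856-59951982, minus strand): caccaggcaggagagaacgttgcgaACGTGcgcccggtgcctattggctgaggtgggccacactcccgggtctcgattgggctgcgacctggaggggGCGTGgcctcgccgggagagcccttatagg

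Before the start, at least 1 core was found in 21 of the 27 genes with a window (77.8%), compared with 60.5% of the 10701 tested genes with a window and 41.5% of all 27025 genes with a window. At least 2 cores were found in 15 of the 27 (55.6%), compared with 31% and 18.7%, where an E-box counts as 2 cores, 1 on each strand. The palindromic E-box CACGTG, which holds ACGTG on each strand and is also bound by other factors, was found in 4 of the 27 (14.8%), compared with 9.57% and 6.86%. A core is a short run of letters and a match is a description, not a site of binding. In these stretches the cores were arranged differently. Egln3 had 1 core, close to the far end of its window, Hif1a had an E-box and a further ACGTG, Bnip3 had 5 matches of which 2 belonged to 1 E-box, and Ankrd37 had a pair of overlapping cores on opposite strands besides 2 others.

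**Figure D1:**
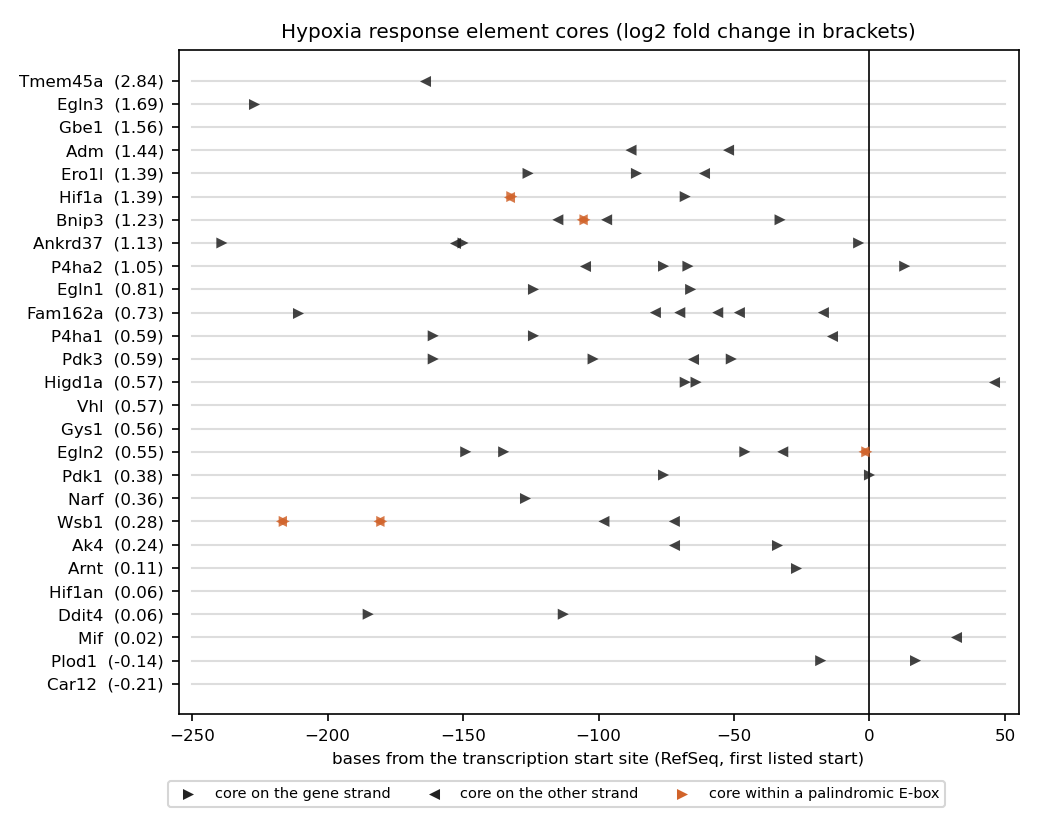
Positions of the core ACGTG or GCGTG in the first listed RefSeq window of 27 genes, in bases from the transcription start (x axis, 0 is the start), with genes ordered by the log2 fold change given in brackets. Triangles pointing right are cores on the strand of the gene and those pointing left are cores on the other strand, and orange marks, where both overlap, are E-boxes; Gbe1, Vhl, Gys1, Hif1an and Car12 have no core in the window shown, and that of Mif lies after the start.

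Most of the 32 genes were higher in Sora-Treg cells than in ctrl-Treg cells. Of the 32, 28 rose at an adjusted p under 0.05 (edgeR's quasi-likelihood test with Benjamini-Hochberg adjustment over the 13463 genes tested), where 29.7% of all tested genes rose. Only Car12 fell, where 29.9% of all tested genes fell, and Hif1an, Plod1 and Mif did not pass the threshold. With a change of more than 2-fold asked for as well, the rule used here for differentially expressed genes (DEGs), 14 of the 32 were higher, against 6.3% of all tested genes, and 0 were lower, against 4.97%. The median log2 fold change of the 32 was 0.66, with quartiles at 0.34 and 1.28, and that of all tested genes was -0.0035. In CPM, counts brought to a common library total and scaled by TMM, the lowest Sora-Treg library stood above the highest ctrl-Treg library for 27 of the 32, where 31.8% of all tested genes did, and the reverse held for 2, Plod1 and Car12, where 32% of all tested genes did. The groups overlapped for Arnt, Hif1an and Mif. In 26 of the 32 genes, direction and call were the same under every alternative that gave a value, and the exceptions were Arnt, Hif1an, Plod1, Car12, Ddit4 and Mif. On the log2(FPKM + 1) scale, 9 genes were past 2-fold instead of 14. All 32 passed the filter on low counts, and each would have passed in either group alone. Because these are bulk libraries, a change in the RNA of every cell and a change in the share of cells that express a gene cannot be told apart.

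**Figure D2:**
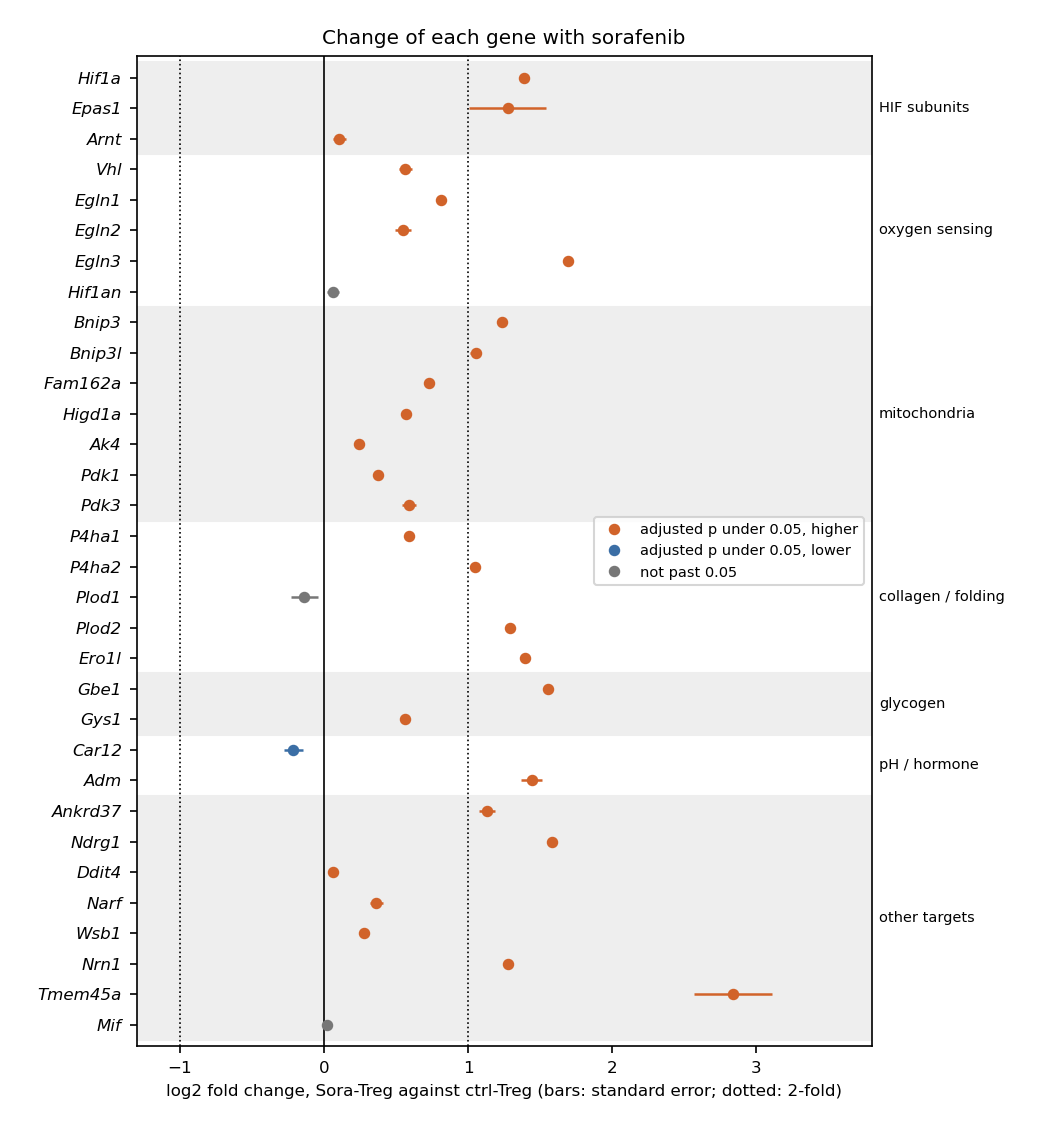
Log2 fold change of each of the 32 genes, Sora-Treg against ctrl-Treg (x axis), with its standard error as a bar and genes grouped by role. Dotted lines stand at 2-fold; 14 genes lie beyond the line on the right and none beyond the line on the left, Tmem45a lies farthest right at 2.84, and Car12 is the gene that passed the test on the lower side.

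The libraries held between 30727686 and 37717324 counts. In CPM scaled by library size and not by TMM, 3 counts, taken as the floor, were worth 0.0795 to 0.0976. The lowest count of any of the 32 genes in a library was 12. Together, also scaled by library size only, the 32 genes took 5566 to 5627 CPM in ctrl-Treg libraries and 10186 to 10438 CPM in Sora-Treg libraries. TMM factors were 1.04 in all ctrl-Treg libraries and 0.959 to 0.963 in Sora-Treg libraries. Scaling by library size instead lowered the median of all genes by 0.12 on the log2 scale. It turned the split of all genes from 3994 higher and 4028 lower to 2862 higher and 5614 lower, while 26 of the 32 genes still rose and 3 fell. Foxp3, which defines Tregs, was measured at 259 ± 8.99 CPM (SD, n = 3) in ctrl-Treg cells and at 272 ± 4.75 CPM (SD, n = 3) in Sora-Treg cells. It narrowly passed the threshold as higher, with a log2 fold change of 0.074 ± 0.031 (SE) and an edgeR adjusted p of 0.0405. In CPM scaled by library size, the 5 Treg markers summed to 3112 to 3145 in ctrl-Treg and 5517 to 5642 in Sora-Treg libraries. Il2ra (1992 to 2048 and 3596 to 3687) and Ctla4 (386 to 409 and 1037 to 1088) made up most of that difference, whereas Foxp3 (262 to 281 and 257 to 267) overlapped between groups and Ikzf2 (149.6 to 154 and 136 to 151) did so too. In the same order of groups, the 4 T cell markers to 1527 to 1537 and 1798 to 1868, and the pair of CD8 markers to 13.7 to 15.7 and 12.1 to 13.3. Of other cells, the 5 myeloid markers summed to 95, 94 and 25.2 in ctrl-Treg libraries 1 to 3 and to 21.1, 39.9 and 19.5 in Sora-Treg libraries 1 to 3, with none of the 5 at 0 in all libraries, and the 4 B cell markers to 1.59 to 2.48 and 0.241 to 0.351. Natural killer markers reached at most 1 count and erythroid markers at most 4.

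The genes for both alpha subunits rose by more than 2-fold, and the gene for the beta subunit passed the threshold narrowly. Hif1a stood at 258, 263 and 269 CPM in ctrl-Treg and 671, 722 and 675 CPM in Sora-Treg libraries 1 to 3. Every Sora-Treg library was more than 2-fold above every ctrl-Treg library. Its log2 fold change was 1.39 ± 0.031 (SE), with an adjusted p of 1.79e-20 from edgeR, a 2.62-fold rise that was larger than in 96.0% of the tested genes. Epas1, which encodes the alpha subunit best known from endothelial cells and other tissues than T cells, was close to the limit of what was counted, at 0.991, 1.13 and 0.783 CPM in ctrl-Treg and 2.5, 1.94 and 2.61 CPM in Sora-Treg libraries 1 to 3. The groups did not overlap, and the log2 fold change was 1.28 ± 0.27 (SE), with an edgeR adjusted p of 2.59e-04 and a wide 95% interval of 0.75 to 1.80. On the log2(FPKM + 1) scale, which compresses low genes, it was 0.26. Epas1 was lowest in ctrl-Treg library 3, the ctrl-Treg library with the lowest myeloid sum, and its log2 fold change was 1.59 against that library alone, a value given without a test. The part of the myeloid markers in this result was not tested. Per length, Hif1a stood at 54.9 ± 1.08 FPKM in ctrl-Treg cells and 133 ± 5.34 FPKM in Sora-Treg cells, and Epas1 at 0.184 ± 0.0329 FPKM in ctrl-Treg cells and 0.415 ± 0.0635 FPKM in Sora-Treg cells (SD, n = 3).

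Arnt, the shared partner, was measured at 74.1, 81.5 and 83 CPM in ctrl-Treg and 82.0, 85.8 and 88.6 CPM in Sora-Treg libraries 1 to 3. The lowest Sora-Treg library lay within the ctrl-Treg range, and ctrl-Treg library 1 was the lowest of all 6. The log2 fold change of 0.11 ± 0.045 (SE) had an edgeR adjusted p of 0.0474. In edgeR the call was lost without ctrl-Treg library 1, Sora-Treg library 2 or Sora-Treg library 3 (adjusted p = 0.297, 0.0603 and 0.197). It was also lost in edgeR with upper quartile scaling and with a filter of 1 count in any sample (adjusted p = 0.193 and 0.0832). In DESeq2 it was lost too (adjusted p = 0.0569), and the sign turned with scaling by library size (-0.0096).

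Of the 5 genes that sense oxygen or turn HIF over, 4 rose and 1 was past 2-fold, where 29.7% and 6.3% of all tested genes did. Egln3, the prolyl hydroxylase most strongly induced by hypoxia in many cell types, stood at 443, 445 and 459 CPM in ctrl-Treg and 1465, 1447 and 1434 CPM in Sora-Treg libraries 1 to 3. The groups were far apart and the spread within each was small, and its log2 fold change of 1.69 ± 0.025 (SE) had an edgeR adjusted p of 8.12e-24. Egln1, the hydroxylase that sets HIF levels in most tissues at normal oxygen, was at 344, 349 and 358 CPM in ctrl-Treg and 619, 611 and 612 CPM in Sora-Treg libraries 1 to 3, also without overlap. The log2 fold change of Egln1 was 0.81 ± 0.026 (SE), and edgeR gave an adjusted p of 1.41e-17. Egln2, the remaining enzyme of the family and not known as a HIF target, was at 40.0, 42.9 and 36.3 CPM in ctrl-Treg and 60.4, 54.8 and 59.7 CPM in Sora-Treg libraries 1 to 3. It rose too, by a log2 fold change of 0.55 ± 0.056 (SE, with 1.38e-08 as the adjusted p in edgeR).

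Vhl, the substrate-binding subunit of the ubiquitin ligase, was at 44.0, 43.4 and 45.4 CPM in ctrl-Treg and 64.8, 65.7 and 65.9 CPM in Sora-Treg libraries 1 to 3. It rose without overlap between groups, with a log2 fold change of 0.57 ± 0.043 (SE) and an edgeR adjusted p of 1.04e-10. Hif1an, the asparagine hydroxylase, was at 78.2, 74.6 and 80.1 CPM in ctrl-Treg and 76.1, 83.1 and 84.1 CPM in Sora-Treg libraries 1 to 3, and the groups overlapped. Its log2 fold change was 0.064 ± 0.044 (SE), with an edgeR adjusted p of 0.22 and a 95% interval of -0.022 to 0.15. Among the alternatives it passed the threshold only without Sora-Treg library 1, at 0.11 and an edgeR adjusted p of 0.0324, and its sign turned with scaling by library size (-0.052). Per length, the order in ctrl-Treg cells was Egln3 at 152 ± 2.80, Egln1 at 103 ± 1.80, Vhl at 16.7 ± 0.396, Egln2 at 15.7 ± 1.29 and Hif1an at 13 ± 0.487 FPKM (SD, n = 3). Vhl and Egln2 overlapped there, and all other neighbours stood apart. In Sora-Treg cells the order was the same, with Egln3 at 453 ± 5.46 and Egln1 at 167 ± 1.59 FPKM (SD, n = 3).

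**Figure D3:**
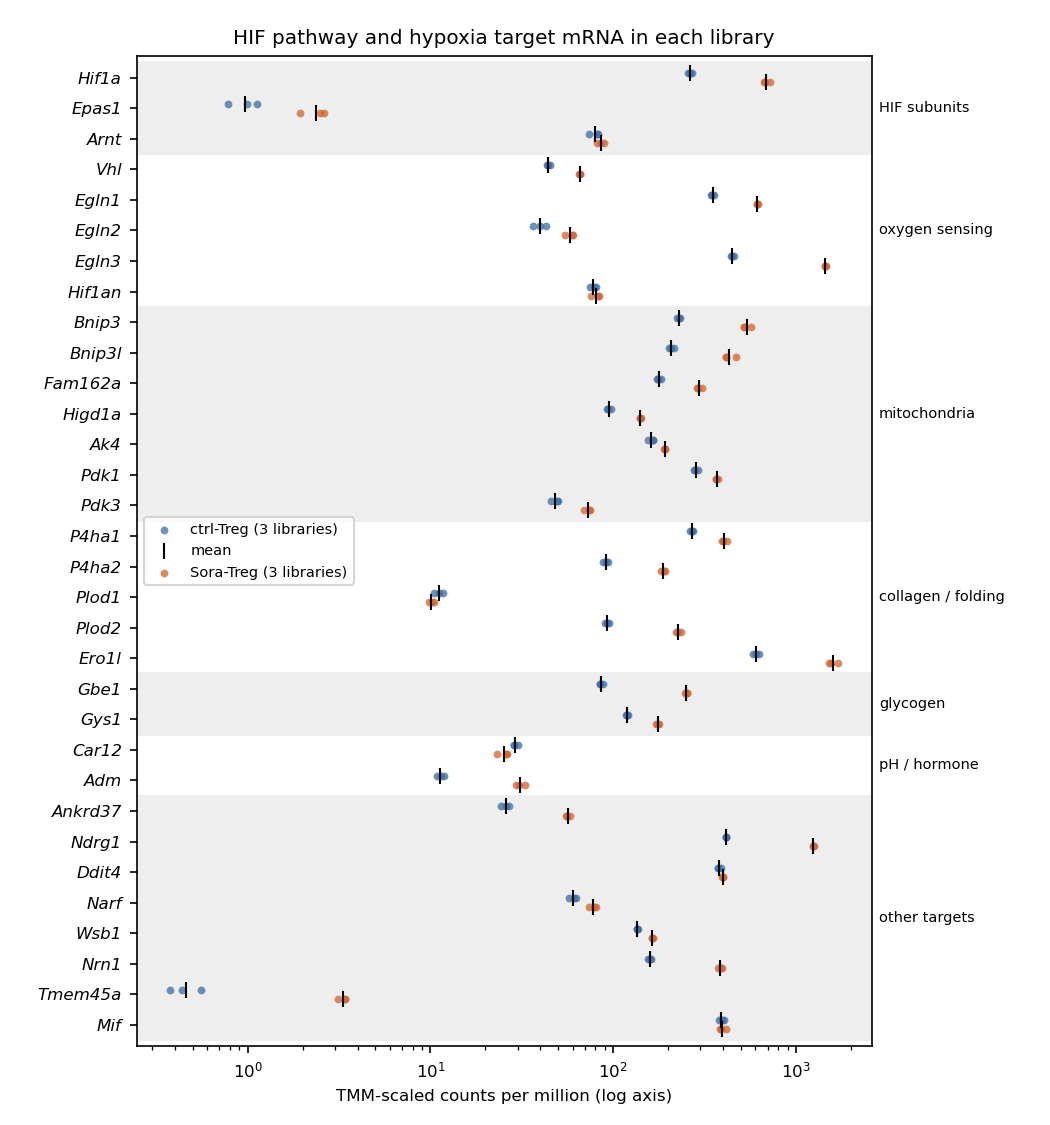
TMM-scaled CPM (x axis, log10 scale) of each of the 32 genes in the 3 ctrl-Treg and 3 Sora-Treg libraries, 1 point per library and a black tick at each mean, with genes grouped by role. Libraries of a group lie close together for most genes, Epas1 and Tmem45a have the fewest counts, and Ero1l, Egln3 and Ndrg1 reach the highest values in Sora-Treg libraries, with means of 1591, 1449 and 1244 CPM.

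All 7 genes of mitochondria and mitophagy rose, each without overlap between groups, and 2 of the 7 were past 2-fold. Among all tested genes, 29.7% rose, 31.8% stood apart on the higher side and 6.3% rose past 2-fold. The 2 past 2-fold were Bnip3 and Bnip3l, related proteins of the outer mitochondrial membrane that act as receptors for mitophagy. Bnip3 was at 228, 223 and 232 CPM in ctrl-Treg and 522, 569 and 519 CPM in Sora-Treg libraries 1 to 3. The change of Bnip3 on the log2 scale was 1.23 ± 0.033 (SE), with an edgeR adjusted p of 5.75e-19. Sora-Treg library 2 was the highest for both genes. Bnip3l was at 208, 215 and 203 CPM in ctrl-Treg and 416, 468 and 414 CPM in Sora-Treg libraries 1 to 3. That of Bnip3l was 1.05 ± 0.038 (SE), with an edgeR adjusted p of 1.52e-16, just past the 2-fold line. It was short of 2-fold without Sora-Treg library 2 (0.99), with library size scaling (0.94) and in the FPKM fits (0.92 to 0.93). Of the 50-base stretches of their transcripts, 20.8% in Bnip3l and 16.5% in Bnip3 also stood in transcripts of other genes on the same strand. The processed copy Bnip3l-ps, which shared the most with Bnip3l, was counted at 604 to 1146 reads with a log2 fold change of 0.87 ± 0.068 (SE), so that how reads were split between it and Bnip3l is uncertain.

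Fam162a, a mitochondrial protein linked to cell death in hypoxia, rose from 178 ± 4.33 to 295 ± 8.76 CPM on average (SD, n = 3), with a log2 fold change of 0.73 ± 0.031 (SE) and an edgeR adjusted p of 3.31e-15. Higd1a, which binds respiratory chain complexes, rose from 94.7 ± 2.43 to 141 ± 0.728 CPM on average (SD, n = 3), with a log2 fold change of 0.57 ± 0.035 (SE) and an edgeR adjusted p of 1.85e-12. The smallest change of the 7 was that of Ak4, an adenylate kinase of the mitochondrial matrix. It was at 155, 166 and 164 CPM in ctrl-Treg and 191, 191 and 191 CPM in Sora-Treg libraries 1 to 3, a log2 fold change of 0.24 ± 0.032 (SE, with 1.02e-06 as the adjusted p in edgeR). The kinases that switch off pyruvate dehydrogenase, and with it the entry of pyruvate into the citric acid cycle, both rose. Pdk1, a textbook HIF target, was at 278, 282 and 293 CPM in ctrl-Treg and 367, 373 and 366 CPM in Sora-Treg libraries 1 to 3, and its log2 fold change was 0.38 ± 0.028 (SE, with 7.60e-11 as the adjusted p in edgeR). Pdk3, its relative, was at 45.9, 49.8 and 49.3 CPM in ctrl-Treg and 69.6, 74.4 and 74.1 CPM in Sora-Treg libraries 1 to 3, and its log2 fold change was 0.59 ± 0.046 (SE, with 1.39e-10 as the adjusted p in edgeR).

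Among the 5 genes of collagen modification and oxidative folding, 4 rose, 3 of them past 2-fold, and Plod1 did not. Over all tested genes, 29.7% rose and 6.3% rose past 2-fold. P4ha1 and P4ha2 encode alternative catalytic subunits of collagen prolyl hydroxylase. P4ha1 was at 274, 263 and 271 CPM in ctrl-Treg and 401, 395 and 421 CPM in Sora-Treg libraries 1 to 3, with a log2 fold change of 0.59 ± 0.030 (SE, with 5.51e-14 as the adjusted p in edgeR). P4ha2 was at 88.1, 93.7 and 90.9 CPM in ctrl-Treg and 192, 189.6 and 182 CPM in Sora-Treg libraries 1 to 3, with a log2 fold change of 1.05 ± 0.035 (SE, with 3.62e-17 as the adjusted p in edgeR). The groups did not overlap for either gene, and P4ha2 was short of 2-fold with scaling by library size (0.93 on the log2 scale) and in the FPKM fits (0.92 to 0.93).

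Plod1 and Plod2 encode lysyl hydroxylases of collagen and differed from each other. Plod2, which hydroxylates the collagen telopeptides and is a known hypoxia target, was at 90.6, 95 and 92.6 CPM in ctrl-Treg and 220.2, 236 and 226 CPM in Sora-Treg libraries 1 to 3. Its log2 fold change was 1.29 ± 0.035 (SE, with 6.37e-19 as the adjusted p in edgeR). Plod1 was at 10.5, 11.8 and 11.2 CPM in ctrl-Treg and 10.4, 10.2 and 9.78 CPM in Sora-Treg libraries 1 to 3. Every Sora-Treg library was just below every ctrl-Treg library, but the log2 fold change of -0.14 ± 0.092 (SE) did not pass edgeR's threshold (adjusted p = 0.214). With scaling by library size it did, at -0.25 and an adjusted p of 0.0218. Ero1l, the endoplasmic reticulum oxidase that forms disulphide bonds through protein disulphide isomerase, took the largest share of counts of the 32 genes, at 583, 630.5 and 602 CPM in ctrl-Treg and 1554, 1701 and 1518 CPM in Sora-Treg libraries 1 to 3. Sora-Treg library 2 was the highest, the groups were well apart, and the log2 fold change was 1.39 ± 0.035 (SE, with 1.57e-19 as the adjusted p in edgeR).

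Both glycogen genes rose, where 29.7% of all tested genes did. Gbe1, the branching enzyme, was at 84.2, 84.4 and 87.8 CPM in ctrl-Treg and 246, 254 and 254 CPM in Sora-Treg libraries 1 to 3. Its log2 fold change of 1.56 ± 0.033 (SE, with 8.98e-21 as the adjusted p in edgeR) was the fourth largest of the 32, after Tmem45a, Egln3 and Ndrg1. Gys1, the glycogen synthase of muscle and most other tissues, was at 121, 118 and 119 CPM in ctrl-Treg and 177, 172 and 179 CPM in Sora-Treg libraries 1 to 3, and its log2 fold change was 0.56 ± 0.032 (SE, with 7.52e-13 as the adjusted p in edgeR). The groups did not overlap for either gene.

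Car12 and Adm, of pH control and peptide hormone signalling, moved apart. Car12, a carbonic anhydrase at the cell surface, was the gene of the 32 that fell. It was at 30.1, 28.6 and 28.7 CPM in ctrl-Treg and 26.0, 23.3 and 26.2 CPM in Sora-Treg libraries 1 to 3, and all Sora-Treg libraries were below all ctrl-Treg libraries. The log2 fold change was small, -0.21 ± 0.064 (SE), with an edgeR adjusted p of 0.00683. Against ctrl-Treg library 3 alone it was -0.19, close to the value with all libraries, but it no longer passed the threshold in that smaller design, where the spread comes from the Sora-Treg libraries only and the lone ctrl-Treg library is assumed to vary like them. Adm, which encodes the vasodilator peptide adrenomedullin, was at 11.8, 10.9 and 11.4 CPM in ctrl-Treg and 29.4, 32.9 and 30.4 CPM in Sora-Treg libraries 1 to 3. It rose with a log2 fold change of 1.44 ± 0.074 (SE, with 8.81e-14 as the adjusted p in edgeR), and against ctrl-Treg library 3 alone the log2 fold change was 1.44.

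Of the 8 other hypoxia-induced genes, 7 rose and 4 were past 2-fold, where 29.7% and 6.3% of all tested genes did. Ndrg1, a stress-response gene of growth control and differentiation, was at 416, 412 and 416 CPM in ctrl-Treg and 1245, 1234 and 1254 CPM in Sora-Treg libraries 1 to 3. The libraries of each group lay close together, and the log2 fold change was 1.58 ± 0.024 (SE, with 1.43e-23 as the adjusted p in edgeR). Nrn1, which encodes neuritin, a membrane-anchored protein known from neurons and also from Tregs, was at 156, 159.9 and 162 CPM in ctrl-Treg and 387, 376 and 392 CPM in Sora-Treg libraries 1 to 3. It rose without overlap, with a log2 fold change of 1.28 ± 0.029 (SE, with 3.86e-20 as the adjusted p in edgeR). Ankrd37, an ankyrin repeat protein, was at 24.4, 27.1 and 26.0 CPM in ctrl-Treg and 55.6, 56.1 and 57.8 CPM in Sora-Treg libraries 1 to 3, with a log2 fold change of 1.13 ± 0.052 (SE, with 1.33e-14 as the adjusted p in edgeR). Tmem45a, a transmembrane protein, had the largest log2 fold change of the 32 and the lowest counts. It was at 0.559, 0.440 and 0.376 CPM in ctrl-Treg and 3.13, 3.42 and 3.43 CPM in Sora-Treg libraries 1 to 3, or 12 to 22 counts per ctrl-Treg library. The groups were far apart for so low a gene, and the log2 fold change was 2.84 ± 0.27 (SE), with a 95% interval of 2.30 to 3.37 and an edgeR adjusted p of 5.28e-09. On the log2(FPKM + 1) scale it was 0.76.

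Smaller changes were measured for the remaining 4. Narf, a nuclear protein that binds prelamin A, was at 62.9, 57.3 and 61.4 CPM in ctrl-Treg and 78.6, 74.0 and 81.0 CPM in Sora-Treg libraries 1 to 3, and its log2 fold change was 0.36 ± 0.046 (SE, with 3.82e-07 as the adjusted p in edgeR). Wsb1, a substrate adaptor of ubiquitin ligases, was at 135, 134 and 137 CPM in ctrl-Treg and 164, 165 and 163 CPM in Sora-Treg libraries 1 to 3, and its log2 fold change was 0.28 ± 0.031 (SE, with 7.96e-08 as the adjusted p in edgeR). Both genes rose without overlap between groups. Ddit4, which restrains mTORC1, was at 375, 389.6 and 377 CPM in ctrl-Treg and 396, 400.1 and 397 CPM in Sora-Treg libraries 1 to 3. The groups did not overlap but were close, and the log2 fold change of 0.064 ± 0.027 (SE) had an edgeR adjusted p of 0.0439. That call was lost when ctrl-Treg library 1 or 3 or Sora-Treg library 2 or 3 was left out (adjusted p between 0.0572 and 0.14). It was also lost in edgeR with upper quartile scaling and with a filter of 1 count in any sample (adjusted p = 0.431 and 0.216). The sign turned with scaling by library size (-0.052). Mif, a cytokine that is abundant in T cells, was at 392, 402 and 378 CPM in ctrl-Treg and 417, 384 and 387 CPM in Sora-Treg libraries 1 to 3. The groups overlapped, and the log2 fold change was 0.019 ± 0.032 (SE) with an edgeR adjusted p of 0.637 and a 95% interval of -0.044 to 0.082. The sign turned with upper quartile scaling (-0.019) and with library size scaling (-0.096, edgeR adjusted p = 0.0121). Other genes, most of them pseudogenes, held 34.1% of the 50-base stretches of Mif on the same strand, so its count is uncertain. Per length, Mif was the most abundant of the 32 genes in both groups, at 699.8 ± 20.9 FPKM in ctrl-Treg cells and 655 ± 31.2 FPKM in Sora-Treg cells (SD, n = 3), and Ddit4 was at 235 ± 4.27 FPKM in ctrl-Treg cells and 227 ± 0.913 FPKM in Sora-Treg cells (SD, n = 3).

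The balance between related genes was followed within each library, as a share of their summed FPKM, which does not depend on the scaling between libraries. Of 8 such pairs or families, built around genes chosen with earlier results of these data known, 7 did not overlap between groups. In CPM, 31.8% of all tested genes stood apart on the higher side and 32% on the lower side. No such share was computed over other pairs of genes. Whether a share rises or falls depends on which gene of a pair is named first, so directions were not counted. With 3 libraries against 3, the exact two-sided permutation p is 0.1 for each of the 7 and cannot be lower, or 0.114 adjusted over the 8. Of the Egln family, Egln3 made up 56.0% ± 0.386 (SD, n = 3) in ctrl-Treg cells and 70.6% ± 0.211 (SD, n = 3) in Sora-Treg cells. Of the summed FPKM of Gbe1 and Gys1, Gbe1 made up 46.9% ± 0.724 (SD, n = 3) in ctrl-Treg cells and 63.7% ± 0.648 (SD, n = 3) in Sora-Treg cells. Of the Plod1 and Plod2 pair, Plod2 made up 74.1% ± 0.679 (SD, n = 3) in ctrl-Treg cells and 88.5% ± 0.549 (SD, n = 3) in Sora-Treg cells. These were the 3 largest shifts. Of the P4ha1 and P4ha2 pair, P4ha2 made up 37.2% ± 1.19 (SD, n = 3) in ctrl-Treg cells and 44.9% ± 1.43 (SD, n = 3) in Sora-Treg cells. The share of Bnip3 with Bnip3l was 73.0% ± 0.945 (SD, n = 3) in ctrl-Treg cells and 75.4% ± 0.338 (SD, n = 3) in Sora-Treg cells. Pdk1 had a lower share in Sora-Treg cells. Its share with Pdk3 was 91.5% ± 0.269 (SD, n = 3) in ctrl-Treg cells and 90.3% ± 0.303 (SD, n = 3) in Sora-Treg cells. Ero1l made up 98.2% ± 0.190 (SD, n = 3) in ctrl-Treg cells and 99.4% ± 0.0263 (SD, n = 3) in Sora-Treg cells of its sum with Ero1b, its relative of secretory cells, for which edgeR gave a log2 fold change of -0.20 ± 0.087 (SE) and an adjusted p of 0.0531. The share of Hif1a with Epas1 was at least 99.6% in every library and overlapped between groups (exact permutation p = 0.6).

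**Figure D4:**
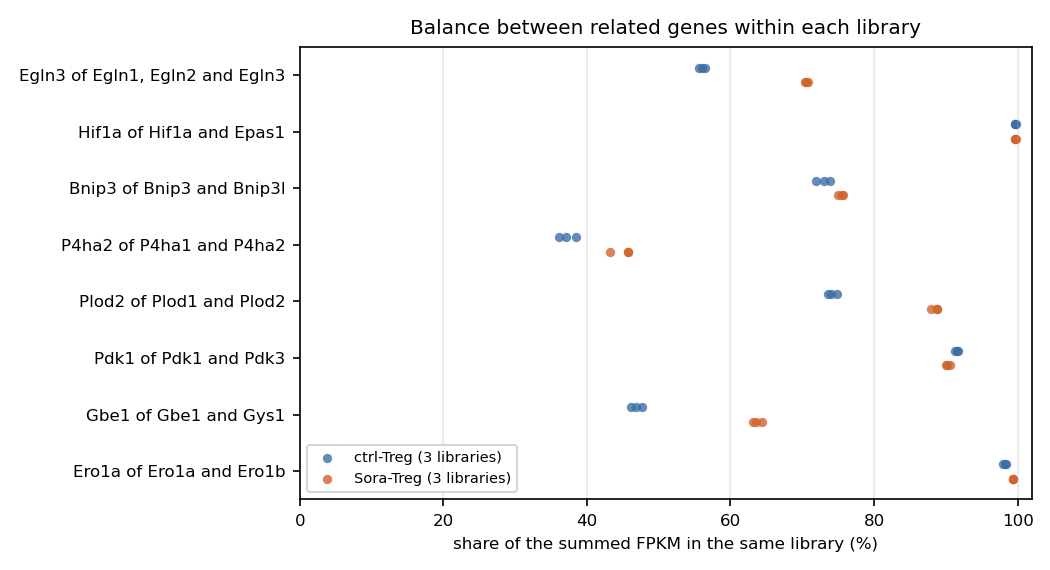
Share of the first-named gene in the summed FPKM of each pair or family (percent), 1 point per library, for the 3 ctrl-Treg and 3 Sora-Treg libraries. Groups stand apart for 7 of the 8, with the widest gap for Gbe1 (46.9% and 63.7%), and overlap for Hif1a with Epas1. No share was computed over other pairs of genes for comparison.

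Set beside the fold changes, cores before the start were present in 8 of the 9 genes past 2-fold that had a window. They were present in 12 of the 14 that rose by less, and in 1 of the 4 that did not rise. Among all tested genes with a window, 60.5% had a core. That share was not computed separately for tested genes that rose and those that did not, and a link between cores and the rise was not tested. The gene past 2-fold without a core was Gbe1, and the gene with a core that did not rise was Plod1, with 1. Counts of cores did not order the changes. Fam162a and Wsb1, with 6 cores each, had log2 fold changes of 0.73 and 0.28. Some of the cores of Wsb1 lay in E-boxes, each counted as 2 cores, and none of those of Fam162a did. Egln3 and Tmem45a, with 1 core each, had 1.69 and 2.84. Ddit4, with 2 cores, had 0.064. The windows leave out enhancers and introns, and RNA alone does not show which cores, if any, were bound.

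Further genes of the pathway, from lists also written with earlier results of these data known, were set beside the 32. Of 28 other HIF regulators and cofactors, all tested, 10 rose, 6 fell and 12 did not pass, with a median log2 fold change of 0.038. The share that rose, 35.7%, stood beside 29.7% of all tested genes, of which 29.9% fell. With scaling by library size, 6 of the 28 rose and 11 fell, where 21.3% and 41.7% of all tested genes did. Hif3a, which encodes an alpha subunit with inhibitory splice forms and is itself a HIF target, was the regulator past 2-fold on the higher side, from 7.79 ± 0.766 to 23.4 ± 0.847 CPM on average (SD, n = 3), with a log2 fold change of 1.59 ± 0.087 (SE) and an edgeR adjusted p of 2.77e-13. Cited2, which competes with HIF for its coactivators, rose by 0.67 ± 0.061 (SE) on the log2 scale (edgeR, adjusted p = 2.11e-09), and Os9, a lectin of the endoplasmic reticulum, by 0.65 ± 0.032 (SE, with 3.59e-14 as the adjusted p in edgeR). On the lower side were Siah2, a ubiquitin ligase for Egln proteins, at -0.21 ± 0.060 (SE, with 0.00453 as the adjusted p in edgeR), the SUMO protease Senp1 at -0.32 ± 0.041 (SE, with 5.83e-07 as the adjusted p in edgeR) and Siah1b at -0.72 ± 0.26 (SE), whose groups overlapped (edgeR, adjusted p = 0.021). Cited4, under 1 CPM in both groups, was past 2-fold on the lower side.

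Of 51 other nonglycolytic hypoxia targets, 46 were tested, Edn1, Lox and Ndufa4l2 were too low, and Epo and Tf were not analysed here. Of the 46, 32 rose, 9 of them past 2-fold, 5 fell and 9 did not pass, and the median log2 fold change was 0.44. Of all tested genes, 29.7% rose, 6.3% rose past 2-fold and 29.9% fell. Cox4i2, a cytochrome c oxidase subunit of hypoxic cells, rose by 2.10 ± 0.14 (SE) on the log2 scale (edgeR, adjusted p = 1.07e-11), and Nos2, the inducible nitric oxide synthase, by 1.86 ± 0.070 (SE, with 2.52e-16 as the adjusted p in edgeR). Vegfa, the angiogenic growth factor, rose from 278 ± 0.648 to 476 ± 10.4 CPM on average (SD, n = 3), with a log2 fold change of 0.78 ± 0.027 (SE, with 6.34e-17 as the adjusted p in edgeR). Kdm3a, a histone demethylase, rose by 0.62 ± 0.030 (SE) on the log2 scale (edgeR, adjusted p = 2.78e-14). Of the targets that fell, Hmox1, the heme oxygenase, was at 20.2, 16.4 and 16.3 CPM in ctrl-Treg and 9.03, 9.10 and 10.9 CPM in Sora-Treg libraries 1 to 3, with a log2 fold change of -0.87 ± 0.10 (SE, with 1.09e-07 as the adjusted p in edgeR). Angptl4 and Slc6a8, both at a few CPM, had log2 fold changes of -0.64 ± 0.16 (SE) and -0.54 ± 0.19 (SE, with 0.0015 and 0.0186 as the adjusted p in edgeR). Hmox1 is also expressed by macrophages, and the myeloid marker sum was highest in ctrl-Treg libraries 1 and 2. The part of these markers in the Hmox1 values was not tested. The number of these targets that fell was 8 of 47 without Sora-Treg library 1 and 3 of 47 without Sora-Treg library 3. With scaling by library size it was 9 of 46. In the same order of settings, 28.3%, 27.7% and 41.7% of all tested genes fell.

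Of 26 genes of glycolysis and glucose uptake, 21 rose, 2 of them past 2-fold, 4 fell and 1 did not pass, with a median log2 fold change of 0.54. Of all tested genes, 29.9% fell. The share of the 26 that rose, 80.8%, stood beside 87.5% of the 32 genes, 69.6% of the other targets and 29.7% of all tested genes. The share past 2-fold on the higher side, 7.69%, stood beside 43.8%, 19.6% and 6.3% in the same order. The difference between these lists was not tested. The transporter Slc2a3 rose from 592 ± 9.26 to 2451 ± 32.3 CPM on average (SD, n = 3), or by 2.05 ± 0.023 (SE) on the log2 scale, and its relative Slc2a1 by 0.72 ± 0.027 (SE, with 1.04e-25 and 3.33e-16 as the adjusted p in edgeR). Aldoc, an aldolase, and Slc16a3, the lactate exporter, followed with 1.24 ± 0.033 (SE) and 0.88 ± 0.026 (SE, with 6.14e-19 and 2.84e-18 as the adjusted p in edgeR). The classical HIF targets Pgk1 and Ldha rose by 0.85 ± 0.020 (SE) and 0.38 ± 0.022 (SE, with 8.36e-20 and 4.76e-13 as the adjusted p in edgeR). Pfkfb1, Bpgm and Eno2 were on the lower side, at -0.81, -0.44 and -0.26 (edgeR, adjusted p = 0.0176, 5.80e-04 and 5.42e-04).

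**Figure D5:**
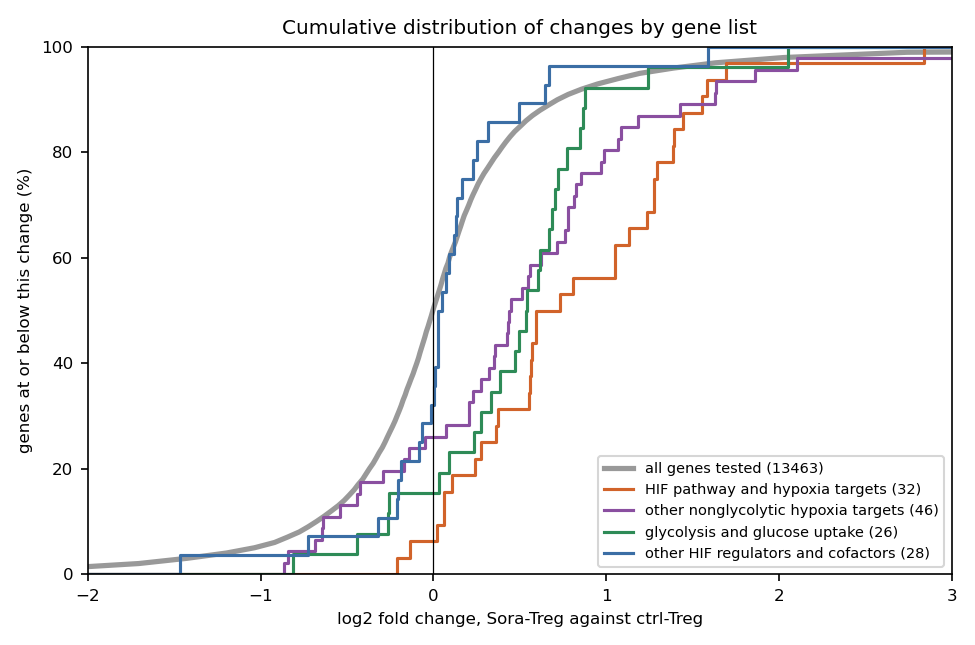
Cumulative share of genes (y axis) at or below each log2 fold change, Sora-Treg against ctrl-Treg (x axis), for the 32 genes, the 28 other regulators, the 46 other targets, the 26 glycolysis genes and all 13463 tested genes. The curve of the 32 genes reaches its middle at 0.66 and that of all genes at -0.0035, and the axis leaves out the most extreme values.

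Sequence shared with other genes could move single values, since the sources used here do not say how reads were assigned by strand. On the same strand, the share of 50-base stretches found in other genes' transcripts was 10.2% for Ak4 and 5.02% for Higd1a besides the 3 genes given above, and under 2% for all others. On the opposite strand it was 46.8% for Mif, 44.9% for Bnip3, 20.2% for Nrn1, 19.4% for Higd1a, 17% for Ankrd37 and 13.3% for Fam162a. The gene opposite Nrn1, Fars2, was counted at 16.5 and 18.2 CPM, and those opposite Ankrd37 and Fam162a, Lrp2bp and Wdr5b, had at most 13 and 60 counts in any library, far below their partners. Opposite Gys1 lies Ruvbl2, with 5.32% of the 50-base stretches of Gys1. Ruvbl2 was counted at 112 CPM in ctrl-Treg and 85.7 CPM in Sora-Treg cells, where Gys1 stood at 119 and 176 CPM. The log2 fold change of Ruvbl2 was -0.38 ± 0.036 (SE). A part of the Gys1 count is therefore uncertain.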

How the data were processed

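RNA of 3 ctrl-Treg and 3 Sora-Treg libraries was measured by RNA sequencing. The authors deposited raw counts per gene and FPKM for the same 22939 genes. The submitters' processing notes name fastp, HISAT2, HTSeq, DESeq2, R 3.2.0 and build GRCm39, whereas the study's methods name Bowtie2 and GRCm38, so the aligner and build of the counts are uncertain, and no gene coordinates are given. The annotation and the strand setting are not given in the sources used here. Promoter coordinates are those of RefSeq on GRCm38.p6, and transcripts for shared sequence were those of GENCODE M21.

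Groups were taken from the sample labels, which name no batch. Counts were fitted in R 4.3.3 with edgeR 4.0.16 (TMM scaling, filterByExpr, quasi-likelihood F test) over all 13463 genes that passed the filter, and p-values were Benjamini-Hochberg adjusted over all of them. A standard error is the log2 fold change divided by the square root of F. CPM were TMM-scaled unless library size scaling is named, and levels between genes were compared as deposited FPKM. The fit was tested on simulated data, in which far fewer genes changed than were called here. That test does not bear on the choice of scaling. Library totals of 30727686 to 37717324 counts set the precision, and the floor of 3 counts covers counting error only. The members and gene lists were chosen with earlier results of these data known. All 32 genes are named. From each further list, the 3 largest and 3 smallest log2 fold changes among called genes with a mean of at least 1 CPM are named, with Slc2a1, Ldha, Pgk1, Vegfa and Kdm3a. A gene that this rule would name is not reported here. Genes outside this rule (Cited4, Ero1b, Bnip3l-ps, Fars2, Lrp2bp, Wdr5b, Ruvbl2 and those too low to test) were named after their values were seen. Alternatives were other scalings and filters, DESeq2 1.42.0, limma 3.58.1 on log2 FPKM, a replicate block, leaving out each library, and, added after seeing the data, leaving out ctrl-Treg libraries 1 and 2 together, whose myeloid markers were higher.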

Additional observations from a re-analysis of the deposited data

How the results depend on the processing

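Over 17 alternatives, 26 of the 32 genes kept their direction and their side of the threshold wherever a value was given (Epas1 and Tmem45a did not pass the filter of a mean of 1 FPKM), and 6 changed. Scaling by library size lowered all genes by 0.12 on the log2 scale, upper quartile scaling by 0.038. The median log2 fold change of the 32 was 0.62 with upper quartile scaling, 0.55 with library size scaling, 0.46 on log2(FPKM + 1), with and without a filter, 0.47 on log2(FPKM + 0.1), and 0.71 without ctrl-Treg libraries 1 and 2. The number past 2-fold was 9 on log2(FPKM + 1), with and without a filter. The number that fell was 3 with library size scaling and with both filtered FPKM fits, 2 on log2(FPKM + 1) with no filter, and 0 without ctrl-Treg libraries 1 and 2, where the lone ctrl-Treg library is assumed to vary like the Sora-Treg libraries. Of the other regulators, 6 rose with library size scaling and in each FPKM fit, and 11 fell with library size scaling. Of the other targets, 9 fell with library size scaling and 3 to 8 when 1 library was left out. Over all tested genes, 21.3% rose and 41.7% fell with library size scaling. In the filtered FPKM fits 22.2% to 22.3% rose and 46.3% to 46.4% fell. On log2(FPKM + 1) with no filter, 11.2% rose and 21.7% fell. When 1 library was left out, 26.7% to 28.7% of all tested genes fell.

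Signs turned for Mif with upper quartile (-0.0189) and library size scaling (-0.0965), in the FPKM fits (-0.0965, -0.0966 and -0.0965), and without Sora-Treg library 1 or ctrl-Treg library 3, with a range of -0.0163 to 0.0426 when 1 library was left out. They turned with library size scaling and in the 3 FPKM fits for Arnt (-0.0096, -0.0101, -0.0105 and -0.0101), Hif1an (-0.0516, -0.0496, -0.0531 and -0.0496) and Ddit4 (-0.0517, -0.0513, -0.0515 and -0.0513). These FPKM were not scaled by TMM. They equal the counts divided by the library total and by a length that was the same in every library (largest relative spread 1.64e-06). The FPKM fits therefore share the scaling of the library size fit and are not separate from it. Other causes of the turned signs were not tested. The replicate block left the numbers at 28 higher, 1 lower and 14 past 2-fold and gave 4057 higher and 4064 lower over all genes. Deviations of libraries with the same number correlated at -0.044, 0.059 and 0.030, and 3 of 6 libraries correlated best with their own number. With so few libraries, these values do not show whether libraries with the same number shared a mouse or culture. Depth limited the precision for Epas1 and Tmem45a, which had 12 to 122 counts per library.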
